A study of Mus musculus with 26 samples.

Results

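The genes described here are the zinc finger transcription factors *Egr1*, *Egr2* and *Egr3* and the corepressors *Nab1* and *Nab2*, which were chosen by name. They are 5 of 35865 genes with matched transcripts, and all 5 passed the filter on low counts in both fits (14600 and 15449 genes tested). RNA was sequenced from TCR Tg101 T cells, CD8+ T cells that carry a transgenic receptor against the C1498 leukemia, sorted from spleens or livers. The study lists day 0 among times after adoptive transfer, whereas the labels of the day 0 controls say only naive Tg101. The labels list C57BL/6, 6 week old and wild type for every sample, and the study describes the Tg101 donors as T cell receptor transgenic on a Rag2-/- background. In build GRCm38 *Egr1* lies at chr18:34859823-34864984, *Egr2* at chr10:67535475-67542188 and *Egr3* at chr14:70077203-70082614, all on the plus strand. *Nab1* lies at chr1:52457294-52500679 and *Nab2* at chr10:127660918-127668568, on the minus strand. The comparisons ask how the transcripts of these cells in the liver of a leukemia-bearing mouse differed from spleen controls and over time. They also ask how the spleen and undivided cells differed from the liver. No liver library came from a leukemia-free mouse, so tissue and leukemia cannot be told apart in any difference between liver and control. The undivided cells were also from spleen, so late liver differed from them in tissue too.

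The 3 control libraries were naive Tg101 cells at day 0 (replicates 1 and 2) and Tg101 cells from untreated mice at day 18 (replicate 3), all from spleen and without leukemia. Leukemia-bearing mice gave liver libraries at an early time (day 7, n = 2), a mid time (days 13, 13 and 14, n = 3) and a late time (days 18 and 16, n = 2). They also gave 2 early spleen libraries at day 7, 1 spleen library at day 14, and 1 library of undivided cells (CTV high, from spleen at day 18). Sample titles place control replicate 1, mid liver replicate 1 and late liver replicate 1 in a TG series and the other 11 low-input libraries in an XC series, and the series entered the model as a batch. The sources used here do not say that libraries of a group came from separate mice, so the spread between them may be technical in part. Single-library groups have no spread of their own.

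Depth ranged from 22679819 to 70706990 estimated counts per low-input library, so the lowest count of any of the 5 genes was 209. The 9 CD8 T cell genes summed to 4170 to 9660 CPM (counts scaled to a common library size) in all 14 low-input libraries, none of them at 0. Markers of other cells were present and moved with some groups. Hepatocyte markers (8 genes) summed to 0.371 to 0.824 CPM in controls, 3.54 to 206 CPM in mid liver and 81.1 to 348 CPM in late liver. Erythroid markers (5 genes) summed to 136 to 20350.4 CPM in controls against 5.59 to 215 CPM in mid and late liver, and myeloid and Kupffer cell markers (11 genes) to 21.4 to 1111 CPM against 12.4 to 56.1 CPM. The part of these cells in the levels given here was not tested.

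Egr factors are immediate early genes. T cell receptor signals acting through the ERK kinases and the serum response factor switch them on within minutes to hours, and NFAT adds to the induction of *Egr2* and *Egr3*. The Egr proteins bind a GC-rich element, and Nab1 and Nab2 dock on a repression domain of Egr1, Egr2 and Egr3 and recruit the NuRD complex, so that they restrain the factors that induce *Nab2*. *Egr1* is mostly known as an activator in T cells, whereas *Egr2* and *Egr3* are best known for genes of anergy and tolerance.

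The serum response factor binds the CArG box and Egr proteins bind the Egr element (GCGNGGGCG). The 250 bases before a RefSeq start of *Egr2*, *Nab1* and *Nab2* were therefore searched for both, on both strands. Sequences were taken from RefSeq (build GRCm38.p6), and 3 of the 5 genes matched. The 250 bases before the start of Egr2-201, the main *Egr2* transcript, lay at chr10:67537619-67537868 on the plus strand, outside the annotated exons of the gene, and are shown because the window holds a CArG box. Capitals mark the CArG box, 72 to 63 bases upstream.
Egr2: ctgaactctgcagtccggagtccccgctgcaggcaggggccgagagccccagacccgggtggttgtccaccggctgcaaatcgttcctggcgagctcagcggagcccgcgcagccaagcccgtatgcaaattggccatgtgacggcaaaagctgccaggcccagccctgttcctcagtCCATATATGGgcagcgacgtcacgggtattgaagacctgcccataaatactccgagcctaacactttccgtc
A CArG box was present in 1.47% of 32851 windows of the same length, and an Egr element in 4.70%.

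The window of *Nab1* (chr1:52500449-52500698, minus strand), of which 231 bases fall in an annotated exon of the gene, held 3 Egr elements. They are given with 10 bases on either side, the element in capitals, because they are the letters that Egr proteins bind.
Nab1, 141 to 133 bases upstream: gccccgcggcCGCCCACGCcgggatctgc
Nab1, 109 to 101 bases upstream: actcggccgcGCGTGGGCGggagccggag
Nab1, 38 to 30 bases upstream: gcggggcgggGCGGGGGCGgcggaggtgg
The first reads as the element on the opposite strand. All 3 lie in the exonic part of the window. Upstream is counted here from the RefSeq start and not from the annotated 5' end of the gene at chr1:52500679. The window of *Nab2* (chr10:127666704-127666953, minus strand) held neither motif. It lies within the annotated gene (chr10:127660918-127668568), so the bases before the annotated 5' end of *Nab2* were not searched. A match is a run of letters and not a measured binding site.

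*Egr1*, an activator of early response genes, was the most abundant Egr transcript in every library. Its level was 73.9, 58.9 and 131 CPM in control replicates 1 to 3, and 146, 385 and 204 CPM in the mid liver libraries. Late liver had 197 and 225 CPM. Every mid and late library was above every control on this scale, although the control at day 18 lay close to mid liver replicate 1. The early liver libraries were far apart, at 287 and 94.4 CPM. In spleens of leukemia-bearing mice *Egr1* was at 135 and 101 CPM early and at 124 CPM on day 14, and undivided cells had 129 CPM. These 4 libraries sat around the day 18 control.

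*Egr2*, the factor most closely tied to anergy, was at 6.37, 4.49 and 10.8 CPM in controls. Mid liver libraries had 65.5, 109 and 49.9 CPM, and late liver libraries 72.8 and 37.7 CPM, so that the lowest of these 5 libraries was above the highest control by more than the whole range of the controls. Early liver had 88.8 CPM in replicate 1 and 6.87 CPM in replicate 2, of which only the first lay outside the range of controls. Early spleen had 14.0 and 8.91 CPM, day 14 spleen 18.5 CPM and undivided cells 9.38 CPM. The single day 14 spleen library was thus above all controls and below all mid and late liver libraries. The share of all tested genes with such an order was not counted.

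*Egr3*, a partner of *Egr2* with overlapping functions in T cells, was at 3.78, 4.94 and 11.7 CPM in controls. It reached 37.8, 92.4 and 31.6 CPM in mid liver and 22.5 and 28.1 CPM in late liver. Early liver was again split, with 58.0 and 6.55 CPM. Early spleen had 15.3 and 9.53 CPM, day 14 spleen 12.4 CPM and undivided cells 17.0 CPM. On this scale the single undivided library was above all 3 controls, and both late liver libraries were below all mid liver libraries. The share of all tested genes that do either was not counted.

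*Nab1* was the member that varied least, by 2.86-fold between the lowest and the highest of the 14 libraries, against 24.4-fold for *Egr2*, 24.5-fold for *Egr3*, 6.53-fold for *Egr1* and 5.59-fold for *Nab2*. Controls had 76.8, 87.0 and 115 CPM of *Nab1*, mid liver 93.1, 121 and 149 CPM, and late liver 103 and 125 CPM, and these groups overlapped. The lowest level was 52.1 CPM in early liver replicate 1, the library in which *Egr2* and *Egr3* were high, beside 86.0 CPM in replicate 2. Early spleen had 112 and 96.4 CPM, day 14 spleen 116 CPM and undivided cells 105 CPM.

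*Nab2*, the corepressor known to be induced by Egr proteins, was at 35.5, 59.8 and 85.6 CPM in controls. Mid liver had 137, 170 and 132 CPM and late liver 199 and 133 CPM, all above the highest control. Early liver had 136 and 64.6 CPM, early spleen 104 and 81.9 CPM, day 14 spleen 81.0 CPM and undivided cells 82.0 CPM. Day 14 spleen and undivided cells were within the range of controls. *Nab2* overlaps *Stat6*, *Nemp1* and an antisense gene (Gm16229) on the opposite strand, and the strand setting of the counting is not given in the sources used here, so reads from that strand cannot be told apart from *Nab2*.

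**Figure D1:**
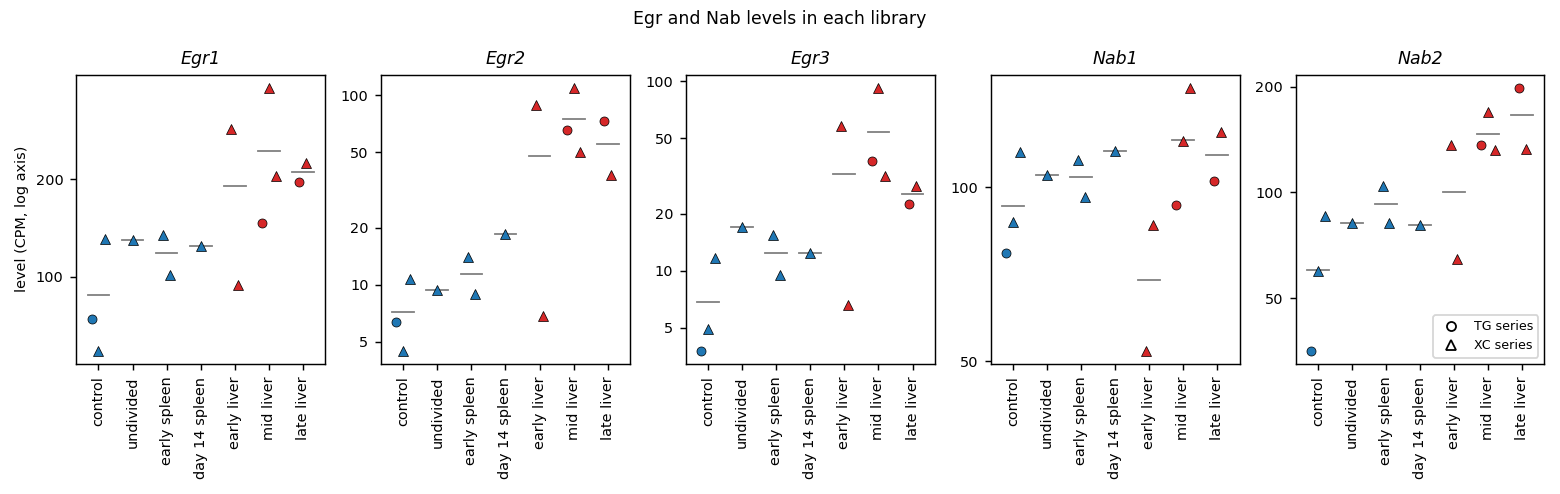
Level of each gene (CPM, log axis) in the 14 low-input libraries by group. Points are libraries (circles TG series, triangles XC series; red from liver, blue from spleen) and grey lines are group means. The mid and late liver points of *Egr2* (37.7 to 109 CPM) lie above all spleen points, whereas those of *Nab1* overlap the controls.

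Levels were compared against control with edgeR's quasi-likelihood test, adjusted by Benjamini-Hochberg over all tested genes, and fold changes below come from that fit with their SE. In mid liver *Egr2* was higher by 3.36 on the log2 scale (SE 0.90, adjusted p = 0.0321), or 10.3-fold. *Egr3* was higher by 3.01 (SE 0.82, adjusted p = 0.0332), or 8.05-fold, and *Nab2* by 1.29 (SE 0.37, adjusted p = 0.0348), or 2.44-fold. *Egr1* differed by 1.41 (SE 0.49, adjusted p = 0.0575) and *Nab1* by 0.35 (SE 0.22, adjusted p = 0.239), and neither passed. Hence 3 of 5 members were called in mid liver, all higher, where 31.3% of all tested genes were called and 17.3% were called as higher. With DESeq2 4 of 5 passed, *Egr1* included, as did 5453 of the 14600 genes. On the CPM scale 4 members, all but *Nab1*, had every mid liver library above every control, which held for 21.8% of tested genes.

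The mid liver calls rested on the full set of libraries. Leaving out control replicate 1 or 2, or any of mid liver replicates 1 to 3, left none of the 5 genes called, and without control replicate 3 only *Nab2* remained (adjusted p = 0.0442). The number of genes called in all moved as well, to 1 without control replicate 1 and 1 without control replicate 2, 0 without mid liver replicate 1 and 0 without replicate 3, 3157 without mid liver replicate 2 and 2355 without control replicate 3. The fold changes kept their direction: *Egr2* stayed between 2.91 and 3.86, *Egr3* between 2.51 and 3.50 and *Nab2* between 0.93 and 1.59 on the log2 scale. Without control replicate 1, which has the most myeloid marker RNA, *Egr2* was at 3.20 (adjusted p = 0.123), *Egr3* at 2.82 (adjusted p = 0.128) and *Nab2* at 0.93 (adjusted p = 0.144). Without mid liver replicate 2, the library with the highest *Egr1*, *Egr2* and *Egr3*, the values were 2.91, 2.51 and 1.21.

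In late liver *Nab2* was the called member, higher by 1.54 on the log2 scale (SE 0.43, adjusted p = 0.0262), or 2.90-fold. *Egr2* differed by 2.89 (SE 0.97, adjusted p = 0.0500, just above the threshold), *Egr1* by 1.34 (SE 0.53, adjusted p = 0.0781), *Egr3* by 2.08 (SE 0.87, adjusted p = 0.0936) and *Nab1* by 0.34 (SE 0.25, adjusted p = 0.294). This is 1 of 5 members, where 37.5% of tested genes were called and 19.8% as higher. DESeq2 called 4 of 5, all but *Nab1*, and 6209 of the 14600 genes. The same 4 genes had both late libraries above every control, as 28.7% of tested genes did. The *Nab2* call was lost without control replicate 1 (1.06, adjusted p = 0.131), control replicate 2 (1.49, adjusted p = 0.0641), late liver replicate 1 (1.0, adjusted p = 0.189) or late liver replicate 2 (2.16, adjusted p = 0.0802), and stood without control replicate 3 (1.79, adjusted p = 0.0291). Genes called in all were 148, 3390, 0, 0 and 4126 in that order.

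Within each series all 5 members were above control in mid and late liver on the CPM scale. The share of all tested genes that show this was not counted, and the TG ratios set single libraries side by side. In the TG series mid liver over control was 10.3-fold for *Egr2*, 10.0-fold for *Egr3*, 1.98-fold for *Egr1*, 3.86-fold for *Nab2* and 1.21-fold for *Nab1*. In the XC series the ratios of the means were 10.4, 7.44, 3.10, 2.08 and 1.33 in the same order. Late liver over control, again in that order, was 11.4, 5.95, 2.66, 5.59 and 1.34 in the TG series and 4.94, 3.37, 2.37, 1.83 and 1.23 in the XC series. The TG ratio was over 1.5 times the XC ratio for *Egr2*, *Egr3* and *Nab2* in late liver and for *Nab2* in mid liver, and the XC ratio was over 1.5 times the TG ratio for *Egr1* in mid liver. In TG mid and late liver most *Egr3* counts (1555 of 2175 and 781 of 1031) came from a retained-intron transcript. The difference between series was not tested. In a fit of the XC series alone, chosen after seeing the data, edgeR called 0 members and 0 genes in both mid and late liver, with adjusted p of 0.187, 0.194 and 0.192 for *Egr2*, *Egr3* and *Nab2* in mid liver and 0.288 for *Nab2* in late liver.

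Early liver held no called member by edgeR, where 0% of tested genes were called. *Egr2* (2.75, SE 0.96, unadjusted p = 0.0227, adjusted p = 0.467) and *Egr3* (2.07, SE 0.87, unadjusted p = 0.0472, adjusted p = 0.484) were the 2 members under an unadjusted p of 0.05 in the edgeR fit, as were 1493 genes in all, and DESeq2 called 0 members and 350 genes. The replicates disagreed: replicate 1 exceeded replicate 2 by 12.9-fold for *Egr2*, 8.85-fold for *Egr3*, 3.03-fold for *Egr1* and 2.11-fold for *Nab2*, and was at 0.606 of it for *Nab1*. Without replicate 1 the log2 differences from control were -0.05 for *Egr2* and -0.23 for *Egr3*, and without replicate 2 they were 3.64 (adjusted p = 0.0120) and 2.91 (adjusted p = 0.0273) in the edgeR fit. In that fit *Nab1* was also called, as lower (-0.97, adjusted p = 0.0330), and 1902 genes were called in all, against 1 gene and 0 members without replicate 1. Replicate 1 also had fewer CD8 T cell transcripts, 4170 CPM over the list against 6346 CPM, while its hepatocyte markers summed to 8.68 CPM against 2.45 CPM; their part in the split was not tested.

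**Figure D2:**
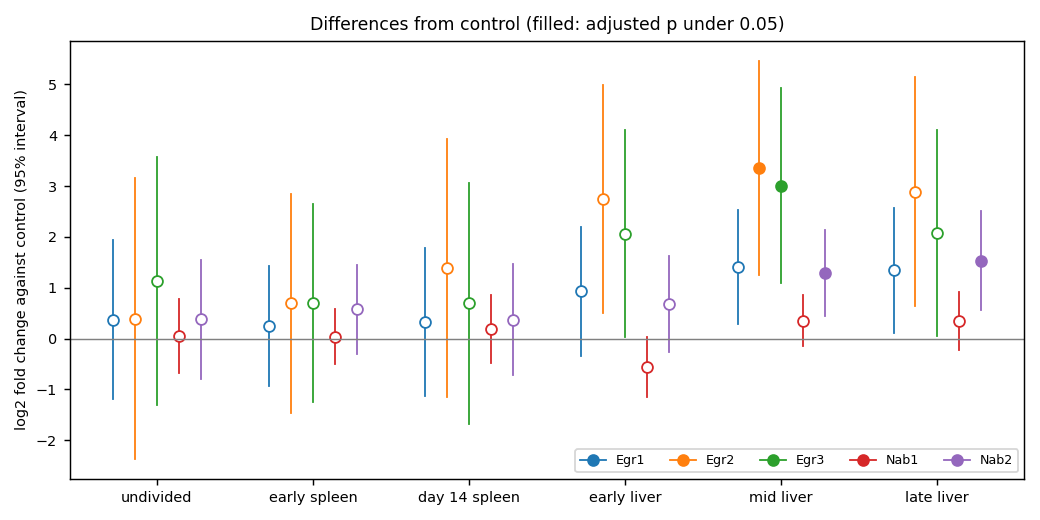
Log2 fold change against control of each member in 6 groups, with the 95% interval from edgeR's fit; filled points have an adjusted p under 0.05. The 3 filled points in mid liver are *Egr2*, *Egr3* and *Nab2*, and the single filled point in late liver is *Nab2*.

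Between late and mid liver no member differed by edgeR, with 0% of genes called, 0 members under an unadjusted p of 0.05 and 0 members by DESeq2. The interval of the difference (late minus mid, log2) ran from -3.00 to 1.14 for *Egr3*, the member with the largest difference (-0.93, adjusted p = 0.951), and from -0.58 to 0.56 for *Nab1*. For *Nab2* it ran from -0.71 to 1.2. Such intervals leave room for a change of several fold in *Egr2* and *Egr3*.

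Spleens of leukemia-bearing mice showed no called member, at either time. Against control, early spleen differed by 0.25 for *Egr1*, 0.69 for *Egr2*, 0.70 for *Egr3*, 0.04 for *Nab1* and 0.57 for *Nab2* on the log2 scale, with adjusted p from 0.897 to 0.989 by edgeR. Here 0% of genes were called, 0 members were under an unadjusted p of 0.05, and DESeq2 called 0 members. Day 14 spleen, with 1 library that is assumed to vary like the other groups, differed most in *Egr2* (1.39, 95% interval -1.16 to 3.93, adjusted p = 0.845), and edgeR and DESeq2 called 0 members, with 0 under an unadjusted p of 0.05. There 0.00647% of genes were called, which is the single gene Gm14681 (chosen after its values were seen).

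The liver was set against the spleen of leukemia-bearing mice at matched times. In early liver against early spleen edgeR called 0% of genes and 0 members, and 1 member, *Nab1*, had an unadjusted p under 0.05 (-0.59, adjusted p = 0.545 by edgeR); DESeq2 called 0 members. In mid liver against day 14 spleen the log2 differences were 2.00 for *Egr2* (95% interval -1.02 to 5.01), 2.34 for *Egr3* (-0.48 to 5.15), 1.11 for *Egr1* (-0.45 to 2.66), 0.93 for *Nab2* (-0.25 to 2.12) and 0.18 for *Nab1* (-0.50 to 0.86). All 3 mid liver libraries were above the day 14 spleen library for *Egr1*, *Egr2*, *Egr3* and *Nab2*. That is a separation from 1 library, and the share of all tested genes that show it was not counted. No member passed (adjusted p from 0.711 to 0.846 by edgeR, 0 unadjusted, 0 by DESeq2), with 0.00647% of genes called. The change of the liver-to-spleen difference from the early to the mid time was largest in *Egr3* (0.96, SE 1.43) and *Nab2* (0.82, SE 0.67), with an adjusted p of 1 for all 5 members by edgeR, 0 members unadjusted or by DESeq2, and 0.00647% of genes called.

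Undivided cells, taken from leukemia-bearing mice but without dilution of the dye, had levels near those of the day 18 control. Their level over that control was 0.988 for *Egr1*, 0.870 for *Egr2*, 1.45 for *Egr3*, 0.914 for *Nab1* and 0.958 for *Nab2*. Against all controls edgeR called 0 members and 0% of genes, with 0 members under an unadjusted p of 0.05 and 0 by DESeq2. The day 18 control was itself above the mean of both day 0 controls for all 5 genes, by 1.97-fold for *Egr1*, 1.99-fold for *Egr2*, 2.69-fold for *Egr3*, 1.40-fold for *Nab1* and 1.80-fold for *Nab2*, a comparison of single libraries with no test. The share of all genes higher in that library was not counted. The day 0 controls held more erythroid marker RNA (5223 and 20350 CPM against 136 CPM at day 18). They also held more myeloid and Kupffer cell marker RNA (1111 and 173 CPM against 21.4 CPM). The part of these cells was not tested. Late liver exceeded undivided cells by 2.50 on the log2 scale for *Egr2* (95% interval -0.94 to 5.93), by 1.15 for *Nab2* (-0.25 to 2.55) and by 0.30 for *Nab1* (-0.50 to 1.10). No member was called there by edgeR (0% of genes called, 0 members unadjusted) or by DESeq2. These are bulk libraries, in which fewer cells that express a gene and less RNA per cell cannot be told apart.

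Levels of different genes can be set side by side only per length, as TPM, which scales each transcript by its length and the library by its depth. In controls the mean TPM fell from *Nab1* (44.8) through *Egr1* (29.3) and *Nab2* (26.5) to *Egr2* (2.76) and *Egr3* (2.32). In mid liver the order was *Egr1* (74.4), *Nab2* (54.8), *Nab1* (54.1), *Egr2* (23.9) and *Egr3* (14.2), and in late liver *Egr1* (51.4), *Nab2* (47.7), *Nab1* (40.9), *Egr2* (12.6) and *Egr3* (5.67). *Egr2* and *Egr3* stood below the other members in the means of all 3 groups, while *Nab2* and *Nab1* changed places with overlapping ranges. On the TPM scale 2 rather than 4 members had every library above every control: *Egr2* and *Egr3* in mid liver, and *Egr2* and *Nab2* in late liver. The share of all tested genes that do so was counted on the CPM scale only. For *Egr1* the lowest mid liver library (32.3 TPM, TG series) was below the highest control (48.3 TPM), and for *Nab2* it was 35.7 against 41.0 TPM. In the TG series *Nab1* was at 21.3 TPM in control and lower in mid (17.2 TPM) and late liver (19.7 TPM), unlike on the CPM scale. For *Egr3* late liver replicate 2 (8.22 TPM) was above mid liver replicate 1 (6.48 TPM), and undivided cells (5.03 TPM) were close to the highest control (4.68 TPM).

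The sum of the 3 Egr transcripts was below the sum of the Nab transcripts in every control, at 0.679, 0.321 and 0.526 of it (TPM). It was 1.01, 1.36 and 0.691 of it in mid liver, 0.811 and 0.773 in late liver, and 1.73 and 0.471 in early liver. *Egr2* and *Egr3* made up 11.4%, 14.96% and 16.1% of Egr TPM in controls, 39.6%, 34.5% and 29.0% in mid liver and 31.6% and 23.1% in late liver. Thus the mid and late liver libraries had both the larger Egr sum for their Nab sum and the larger part of it from *Egr2* and *Egr3*, with no overlap with the controls. For the ratio of the sums the gap was narrow, at 0.691 (mid liver, XC series) against 0.679 (control, TG series). Early liver replicate 1 was at 35.3% and replicate 2 at 11.3%, and the spleen and undivided libraries ranged from 14.8% to 20.5%. *Nab2* over *Nab1* was 0.567 to 0.598 in controls and 0.727 to 2.20 in mid and late liver, where the TG libraries had 2.07 and 2.20. It was 2.26 and 0.572 in early liver, both XC libraries, 0.854 and 0.697 in early spleen, 0.596 in day 14 spleen and 0.573 in undivided cells.

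**Figure D3:**
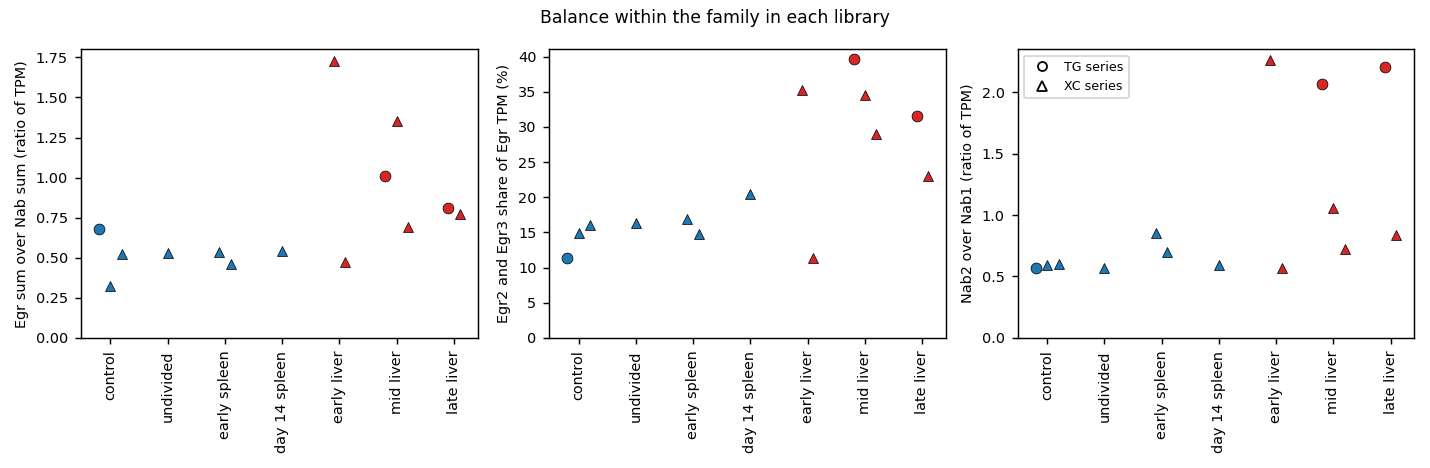
Ratios of TPM in the 14 low-input libraries by group: the Egr sum over the Nab sum, the share of *Egr2* and *Egr3* in the Egr sum, and *Nab2* over *Nab1* (circles TG series, triangles XC series; red from liver, blue from spleen). Mid and late liver libraries lie above the 3 controls in each panel, narrowly in the first (0.691 against 0.679), and the early liver libraries are split.

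*Egr1* was carried almost wholly by Egr1-202 (93.8% to 97.4% of its TPM) and *Egr2* mainly by Egr2-201 (57.7% to 85.7%). *Egr3* was less even. Its retained-intron transcript Egr3-202 made up 43.5%, 71.8% and 74.6% of *Egr3* TPM in the TG control, mid liver and late liver libraries. In the XC series it made up 9.60% and 36.7% in controls, 20.1% and 4.27% in mid liver and 14.9% in late liver. Counts of the coding Egr3-204 in the TG control, mid and late liver libraries were 159, 621 and 248. *Nab1* differed by series rather than by group. Nab1-205 made up 35.1%, 66.5% and 33.4% of *Nab1* TPM in the TG control, mid liver and late liver libraries and 1.96% to 4.40% in the 11 XC libraries. Nab1-204, the main transcript in the XC series, made up 39.1% to 53.2% there and 4.95% to 28.2% in the TG series. Nab2-201 and Nab2-202 carried most of *Nab2* in all libraries, with Nab2-201 at 33.1% to 77.0%. The cause of these differences between series was not tested, and the tests given here used the summed count of each gene.

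**Figure D4:**
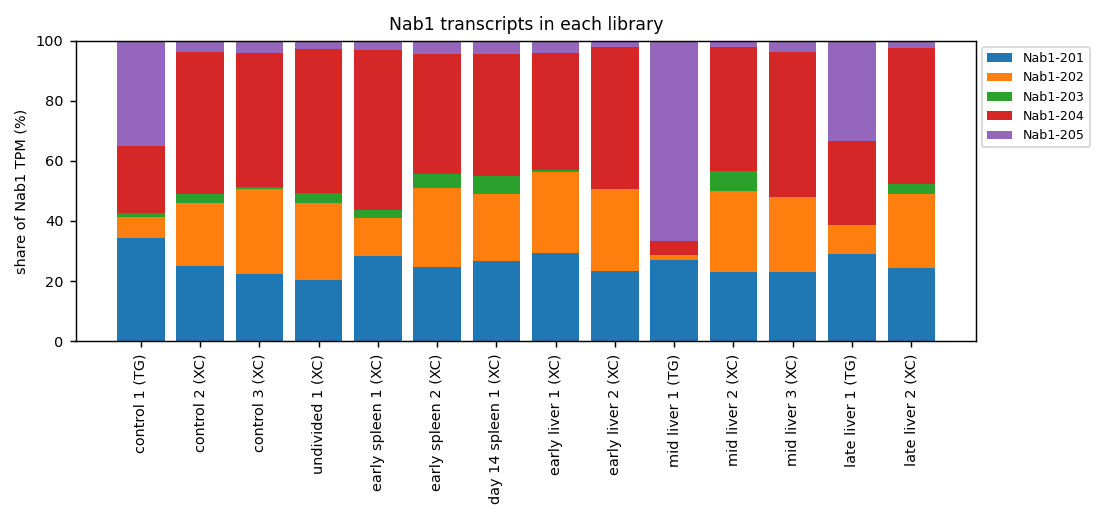
Share of *Nab1* TPM (%) from each of its 5 transcripts in the 14 low-input libraries, ordered by group with the series in brackets. Nab1-205 is large in the 3 TG libraries (33.4% to 66.5%) and small in the others.

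*Egr4*, the remaining family member, was not in the chosen set and is given after its values were seen. It had 3, 0 and 1 counts in controls, 2 in undivided cells and 1 and 1 in early spleen. It had 142, 156 and 80 counts in mid liver and 242 and 208 in late liver. Early liver had 143 and 0 counts, split as its relatives were, and day 14 spleen had 24. It reached 10 counts in 0 of the 4 control and undivided libraries and passed the count filter only through liver libraries, so no test or fold is given. Of the 5 other tested genes of the Egr-type zinc finger list 1 was called higher and 2 lower in late liver, where 37.5% of all tested genes were called, and 1 higher and 3 lower in mid liver, where 31.3% were. *Klf10*, a transforming growth factor-induced repressor, rose by 1.09 (SE 0.30, adjusted p = 0.0242). *Sp4* fell by 1.38 (SE 0.31, adjusted p = 0.0148) and *Sp3* fell by 0.87 (SE 0.26, adjusted p = 0.0306), both GC-box factors. The median of the 5 was -0.87 in late liver, beside -0.03 over all tested genes.

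The signalling genes upstream of Egr (16 genes of the ERK and serum response pathway) were called higher in 4 and lower in 4 in late liver, and 3 and 3 in mid liver, with medians of 0.19 and 0.17 against -0.03 and -0.06 over all genes. Over all tested genes 37.5% were called in late and 31.3% in mid liver. *Nfatc1*, the NFAT factor that sustains its own expression, was at 251 ± 86.2 CPM in controls (SD, n = 3) and at 777 ± 443 CPM in late liver (SD, n = 2), higher by 1.76 (SE 0.31, adjusted p = 0.0101 by edgeR). *Elk3*, a ternary complex factor of the serum response factor, went from 39.1 ± 4.30 to 124 ± 17.5 CPM (1.69, SE 0.18, adjusted p = 0.00628 by edgeR). *Mrtfa*, an actin-regulated coactivator of the serum response factor, fell by 1.43 (SE 0.31), and *Rasgrp1*, which links the T cell receptor to Ras, fell by 1.40 (SE 0.29). Of the 13 NuRD genes 2 were called higher and 1 lower in late liver (median 0.40), where 37.5% of all genes were called. *Hdac1*, a deacetylase, rose by 1.22 (SE 0.23) and *Rbbp4*, a histone chaperone, by 0.89 (SE 0.22), while *Chd3*, a remodeller, fell by 0.73 (SE 0.20). In mid liver 1 of 13 was called, *Hdac1*, where 31.3% of all genes were.

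Of 24 other immediate early genes 7 were called higher and 7 lower in mid liver, and 4 higher and 5 lower in late liver, with medians of -0.21 and -0.10. Over all tested genes 31.3% were called in mid and 37.5% in late liver. *Irf4*, a factor of activated T cells, rose by 5.40 in late liver (SE 1.19), from 2.91 ± 1.67 CPM (SD, n = 3) to 119 ± 16.9 CPM (SD, n = 2). *Dusp4*, a phosphatase of the ERK kinases, rose by 5.20 (SE 1.07), and *Nr4a2*, an orphan nuclear receptor, by 4.17 (SE 0.93). *Fos*, a subunit of AP-1, fell by 3.91 (SE 1.22), from 1098 ± 421 CPM to 110 ± 128 CPM. In the libraries *Fos* was at 1517, 676 and 1099 CPM in controls and at 28.8, 198 and 97.6 CPM in mid liver, and its early liver values were 276 and 1092 CPM. The early liver library with high *Egr2* was therefore the one with low *Fos*.

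**Figure D5:**
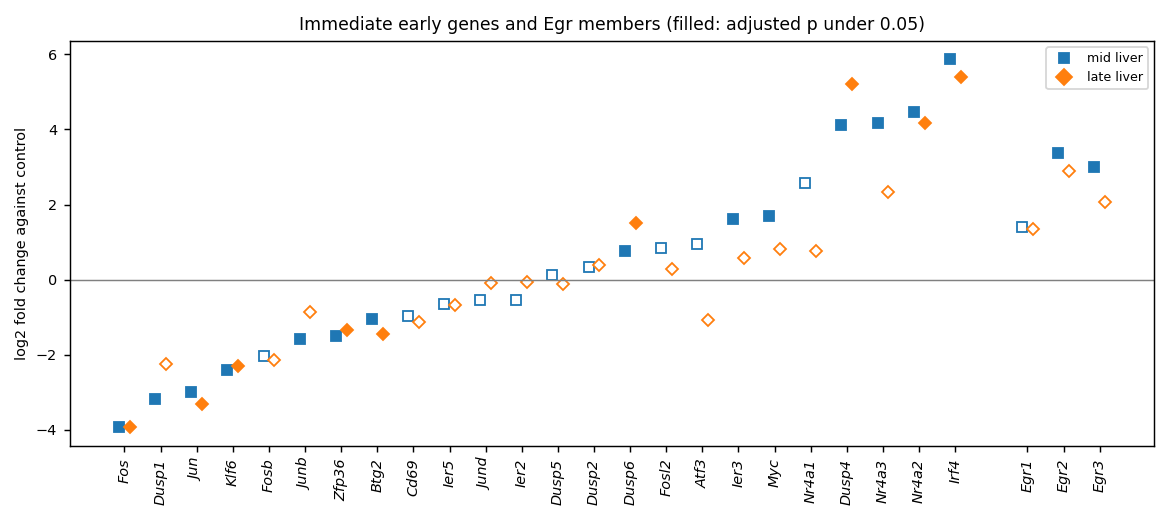
Log2 fold change against control of 24 immediate early genes, ordered by mid liver, and of *Egr1*, *Egr2* and *Egr3*, in mid (squares) and late liver (diamonds); filled points have an adjusted p under 0.05. *Fos* is lowest in both groups (-3.93 and -3.91) and *Irf4* highest (5.87 and 5.40).

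Of 24 genes linked to *Egr2* and *Egr3* in tolerance and restraint of T cells, *Nrgn* and *Nrn1* reached 10 counts in 1 of the 4 control and undivided libraries, passed the count filter through liver libraries, and are left out of the counts. Of the other 22 genes 9 were called higher and 3 lower in mid liver, where 31.3% of all tested genes were called and 17.3% as higher. In late liver 11 were called higher and 3 lower, where 37.5% were called and 19.8% as higher. The medians were 1.18 and 1.39 on the log2 scale, against -0.06 and -0.03 over all genes. In early liver, undivided cells and early spleen none of the 24 was called by edgeR, which called no gene at all there, with medians of 0.34, -0.24 and -0.19. *Lag3*, an inhibitory receptor, was at 0.542 ± 0.345 CPM in controls (SD, n = 3) and at 133 ± 41.5 CPM in late liver (SD, n = 2), higher by 7.82 (SE 1.41). *Tnfrsf9*, the costimulatory receptor 4-1BB, rose by 6.41 (SE 1.41), *Crtam*, an adhesion receptor of activated CD8+ T cells, by 3.08 (SE 0.82), and *Ndrg1*, a factor of anergy, by 2.57 (SE 0.82). The list was made with results of these data known and is no independent evidence of its direction.

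The genes whose pattern was most like that of each member were ranked by the mean absolute difference of log2 CPM over the 14 libraries. These values were first adjusted for series and standardised, and the ranked genes had a mean log2 CPM of 3 or more. The closest to *Egr1* were *Egr3* (0.226) and *Egr2* (0.238), followed by *Btla*, *Tnip2* and *Tnfsf8*. *Egr2* was closest to *Tnfsf14* (0.156), *Crtam* (0.156), *Shmt1*, *Ctps* and *Irf4*, and *Egr3* to *Egr2* (0.20), *Egr1*, *Btla*, *Timm8a1* and *Syncrip*. *Nab2* was closest to *Tm2d3* (0.176), *Hyal2*, *Tacc2*, *Gfer* and *Gemin6*, and *Nab1* to *Fbxo45* (0.233), *Snx25*, *Grsf1*, *Ttc7b* and *Dusp2*. None of the 5 nearest genes of either corepressor was an Egr gene.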

How the data were processed

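Low-input RNA libraries of sorted Tg101 cells were sequenced in batches and quantified by the authors with kallisto (build GRCm38). The deposited values are estimated counts (expected counts, not whole) and TPM per transcript, the latter normalized by the authors for length and depth. Of 118783 transcripts, 98.2% were matched to GENCODE vM21. Counts were summed per gene and over repeat runs, giving 15 libraries from 26 runs, and rounded; TPM was summed per gene and averaged over runs. CPM used TMM factors (0.724 to 1.22). A gene was tested if 6 or more libraries held 10 or more counts of it, by edgeR 4.0.16 (R 4.3.3; group and series terms, robust, two-sided, Benjamini-Hochberg, threshold 0.05). Fits held 11 libraries (14600 genes, 5 residual degrees of freedom), or 14 for spleen comparisons (15449 genes, 6 residual degrees of freedom); a lone library is assumed to vary like the other groups. The oligo-dT day 0 library was in no test. DESeq2 1.42.0 and other settings were alternatives. The fits were run on simulated counts with the same dispersion for every gene and no series effect. That does not show how they perform on these data.

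Genes named beside the members were up to 4 per list, those called in late liver with the largest fold change whose log2 CPM averaged 3 or more, and the 5 nearest patterns per member. Members and lists were chosen with earlier results of these data known. The strand setting and the libraries of each sequencing batch are not given in the sources used here; the series in the titles was taken as the batch.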

Additional observations from a re-analysis of the deposited data

Results flagged for a closer look

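The library of day 0 cells made with oligo-dT priming, which is in no comparison, had 18.6 CPM of *Egr3*, above the highest of the 3 low-input controls (11.7 CPM). Control replicate 1, the low-input TG library of day 0 cells that the TG ratios of *Egr3* use, had 3.78 CPM. The oligo-dT library and control replicate 1 had 85.3 and 73.9 CPM of *Egr1* and 5.80 and 6.37 CPM of *Egr2*. They had 91.1 and 76.8 CPM of *Nab1* and 61.2 and 35.5 CPM of *Nab2*. The oligo-dT library is a single one and was not tested. Groups of 2 or 3 libraries were not searched for outlying libraries, and no member had a called change of the liver-to-spleen difference over time.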

How the results depend on the processing

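All 5 genes had at least 209 counts in each low-input library. No paired analysis was possible because the labels give no replicate numbers that link groups. The restriction to the XC series was chosen after seeing the data. Over all alternatives the log2 fold changes of the members gave 654 values of the same direction and call, 29 that lost and 27 that gained a call, and 30 that changed sign, most of them near 0. The cause of the changes below was not tested, unless fewer libraries or genes entered.

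Members called against control became 1 in mid liver with day 0 controls, 2 in mid liver with no series term (*Nab2* lost, adjusted p = 0.0675), 2 with counts scaled from TPM (*Egr3* lost, adjusted p = 0.0537), 0 in mid and in late liver in the XC series, and, in late liver, 2 with RLE normalization, 4 with DESeq2, 4 with no count filter, 2 with no series term and 2 in the larger set. With no count filter 3 were called in early liver, 1 in late liver against undivided, 1 in day 14 spleen, 2 in early liver against early spleen and 3 in mid liver against day 14 spleen. Leaving out 1 library gave 0 to 3 members in early liver, 0 to 1 in mid, 0 to 1 in late and 0 to 2 in early liver against early spleen.

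Genes called with DESeq2 became 350 in early liver, 34 in late against mid, 1877 in late against undivided, 13 in early spleen, 11 in day 14 spleen, 60 in early liver against early spleen, 17 in mid liver against day 14 spleen and 2 in the change over time. With no count filter the counts were 1480, 434, 2510, 642, 631, 984, 758 and 83 in that order, and 328 in undivided. Day 0 controls gave 19 in early and 2355 in mid liver, and no series term 1385 in mid and 2693 in late liver. The XC series gave 0 in mid and late liver. The single gene called in day 14 spleen became 0 with no series term, the first run only or the XC series; in mid liver against day 14 spleen 0 with no series term or the first run; and in the change over time 0 with these, with counts scaled from TPM or in the XC series. Leaving out 1 library gave 0 to 1902 genes in early, 0 to 3157 in mid and 0 to 4126 in late liver, 0 to 162 in early spleen, 0 to 1 in day 14 spleen, 0 to 973 in early liver against early spleen and 0 to 8 in the change over time.

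Signs changed in uncalled differences (log2). Counts scaled from TPM gave *Nab1* 0.072 in late against mid and -0.069 in early spleen, the XC series *Nab2* -0.16 in late against mid, and the ratio of mean TPM put *Nab1* at -0.13 in late liver. *Egr2* in the change over time was 0.013 with no count filter and 0.021 in the XC series. Leaving out 1 library gave, against control, -0.077 to 1.52 (*Egr1*), -0.048 to 3.64 (*Egr2*) and -0.23 to 2.91 (*Egr3*) in early liver, -0.094 to 0.17 (*Nab1*) in undivided, -0.090 to 0.63 (*Egr1*) and -0.089 to 0.17 (*Nab1*) in early spleen, and -0.021 to 0.70 (*Egr1*) in day 14 spleen. It gave -0.34 to 0.28 (*Egr1*), -1.07 to 0.14 (*Egr2*), -0.086 to 0.095 (*Nab1*) and -0.33 to 0.80 (*Nab2*) in late against mid. In early liver against early spleen it gave -0.33 to 1.27 (*Egr1*), -0.74 to 2.95 (*Egr2*), -0.93 to 2.22 (*Egr3*) and -0.53 to 0.55 (*Nab2*). In the change over time it gave -0.17 to 1.43 (*Egr1*) and -0.96 to 2.74 (*Egr2*).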
